A study of Mus musculus with 118 samples.

Results

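CpG-rich promoters without a RING1B peak were the 1265 gene promoters, of 11042 CpG-rich promoters and 26180 promoters in all, at which no RING1B peak was listed in untreated mouse embryonic stem cells (ESCs). One promoter was taken for each gene, at its most upstream curated RefSeq transcription start site (TSS) on mm10. A promoter counted as CpG-rich when the 1 kb around the TSS had a CpG observed/expected ratio of at least 0.6 and a GC content of at least 50%. The ratio is the number of CpG dinucleotides divided by the number that the C and G content alone would give. Members were selected on RING1B, as those with no peak within 2500 bp on either side of the TSS, so their lack of RING1B is the rule and not a result. By that rule 11.5% of CpG-rich promoters and 47.7% of all promoters lacked RING1B. The share of CpG-rich promoters rests on the settings, and was 24.9% (2744 promoters) without the narrowest 25% of RING1B peaks and 6.23% (461 promoters) with a CpG window of 2 kb.

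The series profiled Polycomb proteins and histone modifications by cChIP-seq, a form of ChIP-seq that is calibrated by mixing in cells of another species. It holds 118 samples in 42 groups. The peaks analysed here were called in untreated cells, and RING1B peaks were also filtered by their loss after tamoxifen in PRC1CKO cells. Untreated PRC1CPM cells gave 3 samples each of RING1B, SUZ12 and PCGF2, and untreated PRC1CKO cells gave 3 of SUZ12. PRC1CPM is clone 41 of a line whose genotype is Ring1a I50A/D53K, Ring1b (WT->I53A/D56K) fl/fl and Rosa26::ERT2-Cre, in which tamoxifen switches RING1B to a catalytically inactive form. PRC1CKO is clone B9 with Ring1a-/-, Ring1b fl/fl and Rosa26::ERT2-Cre, which loses RING1B on tamoxifen. Each line is therefore 1 clone, and both already lack RING1A catalysis before any treatment. Both were derived from E14 ESCs, which the study describes as male. In each list the samples were combined into a single set of positions, so no value per sample, no error between samples and no read depth can be given. A promoter without a listed peak may still hold RING1B signal that was under the threshold of the peak caller or was removed by a filter of the authors. The lists hold no expression values, and the identity of the cells was not checked against marker genes.

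RING1B is the catalytic core of Polycomb repressive complex 1 (PRC1), which places a single ubiquitin on histone H2A. Some variant forms of PRC1 reach chromatin through a subunit that binds non-methylated CpG dinucleotides, and in ESCs RING1B is found at a low level over many CpG islands and at a high level over silent developmental genes. SUZ12 belongs to PRC2, which methylates lysine 27 of histone H3, and PCGF2 belongs to canonical PRC1, which is recruited through that methylation. CpG islands mark the promoters of most broadly expressed genes as well as those of many developmental genes.

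To show what such promoters look like, the 300 bases before the TSS are given 5′ to 3′ on the strand of the gene, read from GRCm38, with every CpG in capitals. The first pair had the highest CpG observed/expected among protein-coding members without an annotated exon in these bases. Ing3, which encodes a subunit of a histone acetyltransferase complex, had a ratio of 1.08 and 85 CpGs in its 1 kb window, and its printed bases lie at chr6:21949271-21949570 on the plus strand. C1galt1, which encodes an O-glycosylation enzyme, had a ratio of 1.05 and 109 CpGs, and its bases lie at chr6:7844924-7845223 on the plus strand.
Ing3: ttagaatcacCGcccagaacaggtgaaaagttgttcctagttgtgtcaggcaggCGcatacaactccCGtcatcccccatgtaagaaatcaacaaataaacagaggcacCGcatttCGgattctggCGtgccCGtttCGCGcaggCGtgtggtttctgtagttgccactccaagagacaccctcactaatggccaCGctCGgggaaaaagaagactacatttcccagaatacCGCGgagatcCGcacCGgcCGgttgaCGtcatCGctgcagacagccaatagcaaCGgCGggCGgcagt
C1galt1: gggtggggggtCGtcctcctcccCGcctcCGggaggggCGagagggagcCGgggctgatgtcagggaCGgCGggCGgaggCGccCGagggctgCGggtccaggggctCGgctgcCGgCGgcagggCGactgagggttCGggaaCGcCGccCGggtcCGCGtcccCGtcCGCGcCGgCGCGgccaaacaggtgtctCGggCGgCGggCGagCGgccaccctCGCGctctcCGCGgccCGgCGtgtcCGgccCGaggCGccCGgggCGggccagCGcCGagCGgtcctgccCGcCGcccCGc
The 22 CpGs of the Ing3 stretch were spread along it at a GC content of 54.3%, whereas the C1galt1 stretch held 49 CpGs at 82.3%.

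The next pair lay at the other end of the range. Ebpl, at chr14:61360446-61360745 on the minus strand, and the zinc finger gene Zfp267, at chr3:36150780-36151079 on the plus strand, had ratios of 0.601 and 0.6004.
Ebpl: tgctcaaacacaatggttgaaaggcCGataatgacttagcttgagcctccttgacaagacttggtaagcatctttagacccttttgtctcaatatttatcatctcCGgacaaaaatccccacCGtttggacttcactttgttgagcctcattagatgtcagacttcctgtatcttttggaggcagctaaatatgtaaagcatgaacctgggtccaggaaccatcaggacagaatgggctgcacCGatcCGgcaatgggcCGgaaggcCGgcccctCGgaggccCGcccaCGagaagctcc
Zfp267: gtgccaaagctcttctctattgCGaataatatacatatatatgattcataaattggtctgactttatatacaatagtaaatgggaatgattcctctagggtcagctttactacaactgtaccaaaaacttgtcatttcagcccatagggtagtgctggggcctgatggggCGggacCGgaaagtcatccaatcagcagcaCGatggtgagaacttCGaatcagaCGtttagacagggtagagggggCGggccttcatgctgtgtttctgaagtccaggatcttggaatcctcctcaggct
These stretches held 10 and 7 CpGs, and every 50-base sequence in both 1 kb windows occurred only once in the genome, as it did for Ing3 and C1galt1.

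A further pair comprised the members with the widest SUZ12 peaks among those without an upstream exon in these bases. Ctnnbip1, which encodes an inhibitor of beta-catenin, is shown at chr4:149517941-149518240 on the plus strand, and Lrp6, which encodes a co-receptor for Wnt ligands, at chr6:134566914-134567213 on the minus strand.
Ctnnbip1: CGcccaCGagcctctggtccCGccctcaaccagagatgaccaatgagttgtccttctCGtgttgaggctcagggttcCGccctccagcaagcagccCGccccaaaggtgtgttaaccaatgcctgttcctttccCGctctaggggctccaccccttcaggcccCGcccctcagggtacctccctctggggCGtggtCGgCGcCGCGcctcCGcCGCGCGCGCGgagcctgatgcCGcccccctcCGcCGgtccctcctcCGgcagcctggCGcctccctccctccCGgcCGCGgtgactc
Lrp6: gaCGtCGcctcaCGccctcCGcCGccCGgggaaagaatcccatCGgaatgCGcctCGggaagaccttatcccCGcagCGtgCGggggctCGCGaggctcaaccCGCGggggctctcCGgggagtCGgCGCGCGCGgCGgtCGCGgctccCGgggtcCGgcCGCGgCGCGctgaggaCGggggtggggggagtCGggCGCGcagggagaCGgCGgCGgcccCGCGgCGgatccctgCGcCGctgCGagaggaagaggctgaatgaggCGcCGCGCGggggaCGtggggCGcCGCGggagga
For comparison, Rybp is a RING1B-bound promoter without SUZ12 on the chromosome of Ing3, and the nearest to it in CpG observed/expected, at 1.07. Rybp encodes a subunit of variant PRC1, and its bases lie at chr6:100287359-100287658 on the minus strand.
Rybp: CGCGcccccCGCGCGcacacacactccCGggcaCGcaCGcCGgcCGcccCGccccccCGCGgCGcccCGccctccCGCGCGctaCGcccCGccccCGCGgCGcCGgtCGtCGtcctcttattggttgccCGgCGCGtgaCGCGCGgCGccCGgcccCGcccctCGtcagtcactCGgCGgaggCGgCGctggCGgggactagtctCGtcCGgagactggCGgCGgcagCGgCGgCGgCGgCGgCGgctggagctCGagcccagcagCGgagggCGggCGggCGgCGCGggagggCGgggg
Rybp had 179 CpGs in its 1 kb window at a GC content of 81.7%, against 85 CpGs at 56% for Ing3, so a like ratio went with a very different number of CpGs. Lrp6, with 151 CpGs at 77.4%, was nearer to Rybp than Ing3 was in both measures, though lower than Rybp in each. The nearest RING1B peak to Lrp6 was 64528 bp away.

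The first comparison asked whether other Polycomb proteins were listed at promoters without RING1B. Over all promoters, 24.2% had a SUZ12 peak within 2500 bp of the TSS and 13.1% had a PCGF2 peak. Among members, 17 of 1265 had SUZ12, a share of 1.34% (95% Wilson interval 0.841% to 2.14%). CpG-rich promoters with RING1B had SUZ12 at 4358 of 9777, a share of 44.6% (43.6% to 45.6%), and CpG-poor promoters without RING1B at 64 of 11217, a share of 0.571% (0.447% to 0.728%). PCGF2 was listed at 0 members (0% to 0.303%) and at 0 CpG-poor promoters without RING1B (0% to 0.0342%), against 2469 CpG-rich promoters with RING1B, a share of 25.3% (24.4% to 26.1%).

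The share with SUZ12 was higher among members than among CpG-poor promoters without RING1B, by 0.773 percentage points (two-sided Fisher's exact test, p = 0.00445, adjusted 0.00593 over 4 tests). At the most downstream TSS of each gene it was 13 of 1237 against 68 of 11769, and the difference was not past the threshold (Fisher's exact test, adjusted p = 0.0735). Without the narrowest 25% of RING1B peaks the difference was 2.26 percentage points, with SUZ12 at 97 of 2744 and PCGF2 at 3, and with a GC cutoff of 55% it was 1.31. Against CpG-rich promoters with RING1B the difference for SUZ12 was -43.2 percentage points (adjusted p = 1.69e-263) and that for PCGF2 was -25.3 percentage points (adjusted p = 3.03e-149, Fisher's exact test). With no PCGF2 peak in either class, the remaining Fisher's exact test gave p = 1. Promoters are not replicates and neighbours share peaks, so these tests say nothing about the spread between cultures. The contrast with RING1B-bound promoters was known before the members were chosen, and is not independent evidence.

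The 17 members with SUZ12 were all protein-coding, as were 88.7% of all members. Of the 17, 0 lay on the X, beside 10.1% of all members. Among the 17 were Lrp6, Ctnnbip1 and Smurf1, genes of the Wnt and BMP pathways, whose share over all members was not counted. At Lrp6 the SUZ12 peak was 600 bp wide and began 631 bp downstream of the TSS. At Ctnnbip1 it was 975 bp wide and began 280 bp downstream. At Smurf1, which encodes a ubiquitin ligase that limits BMP signalling, it was 1271 bp wide and ended 258 bp upstream. Genes of kinase signalling and adhesion also had peaks inside the gene, of 620 bp at Mapk8ip1 (a scaffold of the JNK pathway), 502 bp at Mapkapk5 (a protein kinase) and 337 bp at Pxn (paxillin, a focal adhesion protein).

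Ttc9b had the widest of these peaks, at 1768 bp beginning 141 bp downstream of the TSS, and the nearest RING1B peak, at 3192 bp. Mxd1, which encodes a repressor that pairs with MAX, had a peak of 1646 bp, and Atp6v0a1, which encodes a subunit of the vacuolar proton pump, had one of 1550 bp. Cacng2, an auxiliary subunit of AMPA receptors, was alone in having 2 peaks, of 837 bp inside the gene and 669 bp over the TSS. Tctn3, which encodes a protein of the ciliary transition zone, and Entpd1, which encodes an ectonucleotidase, stand head to head and shared 1 peak of 647 bp. Of the other members, Lzts3, Inpp5a, Fbxo4 and Prrc1 had peaks of 498, 412, 207 and 319 bp inside the gene, and Zfp978 had one of 253 bp over the TSS. Zfp978 was also the only one of the 17 with repeated sequence, as 77.6% of its 50-base sequences occurred once.

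The 17 SUZ12 peaks at members had a median width of 620 bp and ran from 207 to 1768 bp, whereas the median over all 7438 SUZ12 peaks was 2666 bp. The widest peak of the gene lay wholly downstream of the TSS at 14 members and wholly upstream at 2, and a peak covered the TSS itself at Zfp978 and Cacng2. The edge nearest to the TSS was within 1 kb at 16 of 17. A RING1B peak lay within 20000 bp of the TSS at 5 of the 17 and at 393 of all 1265 members. SUZ12 was listed at 1.27% of these 393 members and at 1.38% of the 872 farther away. Among the 17 the largest distance to RING1B was 221042 bp, for Prrc1. Members with SUZ12 had a median of 76 CpGs in the 1 kb window (interquartile range 61 to 97), and the other 1248 had 60 (51 to 71). Of the 124 members with at least 90 CpGs, 7 had SUZ12 (5.65%, interval 2.76% to 11.2%), and of the 94 with fewer than 45, 0 had it (0% to 3.93%).

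**Figure D1:**
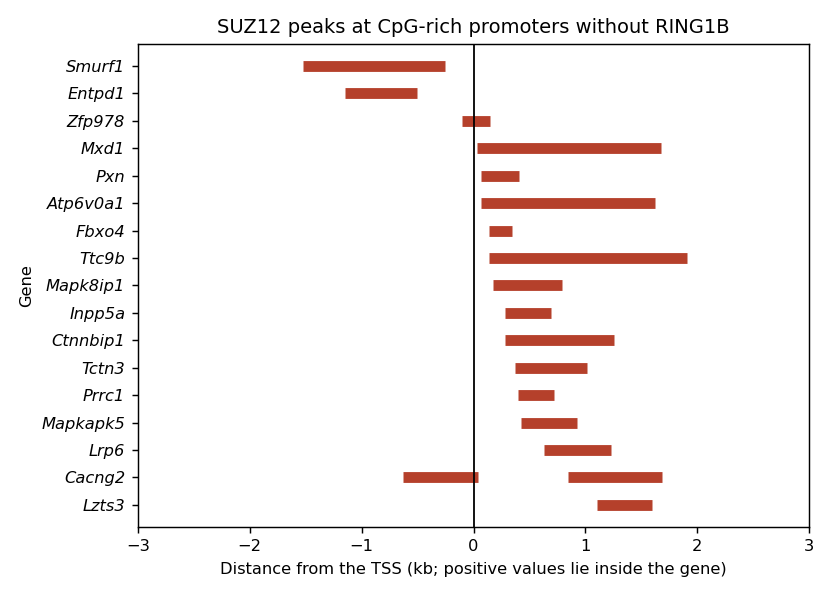
SUZ12 peaks (bars) at the 17 CpG-rich promoters without RING1B, as distance from the TSS in kb along the direction of the gene, with the TSS at 0. The widest bar of the gene lies to the right of the TSS, inside the gene, at 14 genes, and Cacng2 has a further bar over the TSS.

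The next question was how members differed in sequence from the CpG-rich promoters that had RING1B. CpG content is part of the rule, but both classes passed the same cutoffs. Members had a median CpG observed/expected of 0.736 (interquartile range 0.668 to 0.818), against 0.794 (0.711 to 0.881) with RING1B. Their median GC content was 57.3% (54.0% to 61.7%) against 62.3% (58.2% to 66.6%), and their median number of CpGs in 1 kb was 60 (51 to 72) against 75 (62 to 93). The stretch of continuous CpG-rich sequence at the TSS, joined from 200 bp windows past both cutoffs, had a median length of 880 bp (740 to 1090) against 1100 bp (870 to 1420). The quartiles overlapped in all 4 measures, so no cutoff in any of them separated the classes.

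The share of promoters without RING1B declined step by step with the number of CpGs. On autosomes it was 35.5% of 248 promoters with fewer than 45 CpGs (29.8% to 41.6%), 20.7% of 2222 with 45 to 59 (19.03% to 22.4%) and 11.3% of 3102 with 60 to 74 (10.2% to 12.4%). It was then 5.74% of 2300 with 75 to 89 (4.86% to 6.77%) and 3.75% of 2909 with 90 or more (3.12% to 4.50%). No neighbouring intervals among these 5 bins overlapped. The share with SUZ12 went the other way, from 16.9% in the first of these bins to 53.9% in the last. The order was the same over autosomal promoters in which at least 90% of 50-base sequences occurred once, from 33.0% to 2.96%. By length of the CpG-rich stretch, in the same promoters, the share without RING1B was 23.8% of 261 under 600 bp and 2.20% of 1997 at 1500 bp or more.

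**Figure D2:**
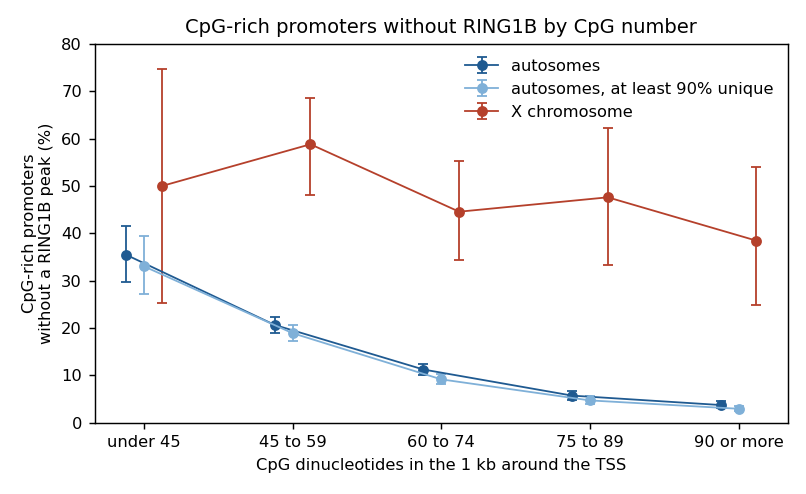
Percent of CpG-rich promoters without a RING1B peak (y axis, with 95% Wilson intervals) by number of CpGs in the 1 kb around the TSS (x axis), for autosomes, autosomal promoters with at least 90% unique sequence, and the X. On autosomes the share goes from 35.5% to 3.75%, and on the X from 50.0% to 38.5% with wide intervals.

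A few members were far richer in CpG than the rest, and their values are described by name. The highest ratios belonged to Marchf6 (1.11), Mcm9 (1.10), Ing3 (1.08), Huwe1 (1.06) and C1galt1 (1.05). Marchf6 and Huwe1 encode ubiquitin ligases, and Mcm9 encodes a helicase of DNA repair and meiosis. Hccs, Nudt10, Ubald2, Ccl21b and Gm15246 followed, each at 1.05. Of these 10, 4 were X-linked (Huwe1, Hccs, Nudt10 and Gm15246), and 2 had little unique sequence, with 8.41% of 50-base sequences occurring once at Nudt10 and 0% at the chemokine gene Ccl21b. The most CpGs were found at Tlk1 (154), Nudt10 (152), Lrp6 (151), Marchf6 (150) and Marchf7 (141). Tlk1, a kinase of chromatin assembly, had a GC content of 79.9% and its nearest RING1B peak was 163060 bp away.

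The values on either side of each cutoff were close. Zfp267 and Zfp78 were just inside the CpG cutoff, at 0.6004 each, while Gm13290 and Pdcd6 were just outside, at 0.5995 and 0.5990. Gm7367 and Med18 were inside the GC cutoff at 50.0%, and Gm6194 and Smim26 outside it at 49.9%. By distance to the nearest RING1B peak, Ubald2 and Usp20 were just inside at 2515 and 2572 bp, and Zfp619 and 4931414P19Rik were RING1B-bound at 2475 and 2376 bp.

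The distance to the nearest RING1B peak exceeds 2500 bp by the rule, and is given as a description. The median distance from the TSS to the nearest RING1B peak was 35481 bp (interquartile range 16288 to 80727), and 72161 bp (21658 to 238904) at CpG-poor promoters without RING1B. A RING1B peak lay within 5 kb of the TSS at 51 members (4.03%) and within 10 kb at 167 (13.2%), while 261 (20.6%) had none within 100 kb. Over CpG-poor promoters without RING1B the same shares were 4.88%, 13.2% and 42.7%. RING1B was listed elsewhere in the gene at 61 members and at another TSS of the gene at 6. The members farthest from RING1B were Cldn34c1 at 2809403 bp, Wdr44 at 2330986 bp and Nap1l3 at 2103265 bp, all on the X, and the pseudogenes Gm10409 and Gm3020 on chromosome 14, at 2695867 and 2456451 bp.

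**Figure D3:**
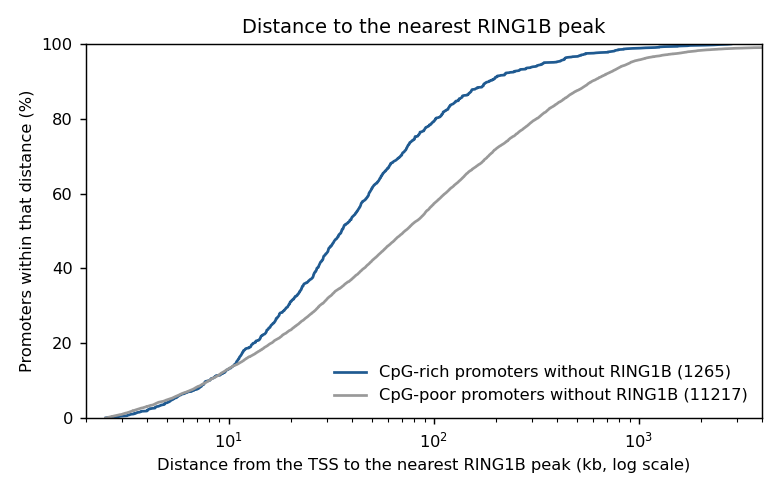
Cumulative percent of promoters (y axis) by distance from the TSS to the nearest RING1B peak in kb (x axis, log scale), for the 1265 CpG-rich and 11217 CpG-poor promoters without RING1B. The curves run together up to about 10 kb, where both stand at 13.2%, and the CpG-rich curve then rises earlier.

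The share of promoters without RING1B was highest on the X chromosome. Of 261 CpG-rich promoters on the X, 128 lacked RING1B, a share of 49.0% (95% Wilson interval 43.0% to 55.1%). On autosomes it was 1137 of 10781, a share of 10.5% (9.98% to 11.1%), and the lowest and highest autosomes were chromosome 11 at 5.65% and chromosome 8 at 15.5%. The X value stayed at 46.5% of 241 promoters with at least 90% unique sequence, where chromosome 8 was at 10.9% and chromosome 18 highest among autosomes at 15.1%. Within bins of CpG number the X share lay between 38.5% of 39 promoters with 90 or more CpGs (24.9% to 54.1%) and 58.8% of 85 with 45 to 59 (48.2% to 68.7%), and the interval lay above the autosomal one in 4 of the 5 bins. The study describes the ESCs as male, so the X is present as 1 copy, and copy number and chromosome cannot be told apart here.

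Other values on the X are given beside those of autosomes. CpG-poor promoters lacked RING1B at 88.9% on the X (86.6% to 90.8%) and 73.0% on autosomes (72.3% to 73.8%). SUZ12 was listed at 65 of the 261 CpG-rich X promoters, 24.9%, against 39.98% on autosomes. Among CpG-rich promoters with RING1B, SUZ12 was listed at 48.9% on the X (40.5% to 57.3%) and 44.5% on autosomes (43.5% to 45.5%). In the same promoters PCGF2 was listed at 37.6% (29.8% to 46.1%) and 25.1% (24.2% to 25.96%). These shares cover only promoters that passed the RING1B call, and the cause of the differences was not tested. RING1B peaks were 1385 bp wide at the median on the X (275 peaks) and 1497 bp on autosomes (18366).

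X-linked members named here were chosen after their values were seen. They included the housekeeping genes Hprt, Pgk1 and G6pdx, whose nearest RING1B peaks were 66591, 32192 and 55052 bp away. They also included regulators of chromatin. The histone demethylase genes Kdm6a and Kdm5c were 1074608 and 87123 bp from RING1B. Zfx, Stag2, Suv39h1 and Hdac6 were members as well, with between 59 and 104 CpGs in 1 kb. Among X-linked promoters with RING1B were Bcor, which encodes a subunit of variant PRC1, Rbbp7, Fmr1 and Atrx. Bcor had SUZ12 over its TSS, and the other 3 had their nearest SUZ12 peak at 599874, 680849 and 161464 bp.

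**Figure D4:**
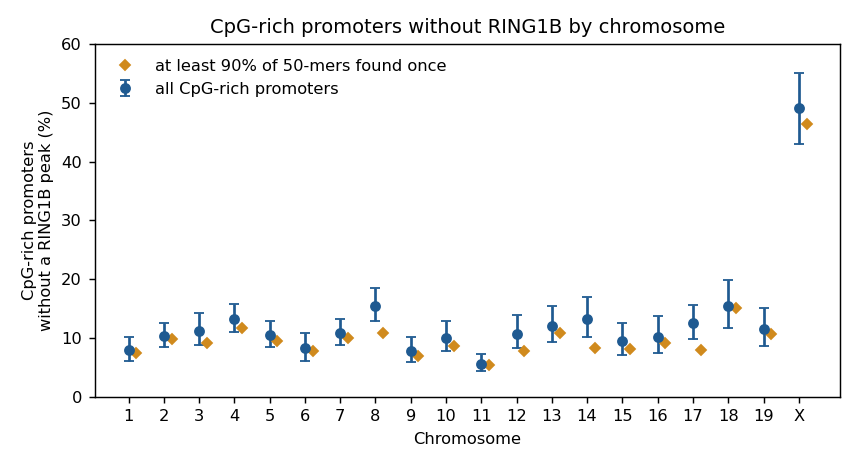
Percent of CpG-rich promoters without a RING1B peak (y axis) on each chromosome (x axis), over all CpG-rich promoters (circles, with 95% Wilson intervals) and over those in which at least 90% of 50-base sequences occur once (diamonds). The X stands at 49.0% and the autosomes between 5.65% and 15.5%.

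Reads were kept only where they mapped to a unique place, so the share of 50-base sequences in the 1 kb window that occur once in the genome was set beside the calls. The length of 50 bases was set here and is not the read length, so the share only approximates where paired reads could map. Among members 122 promoters (9.64%) had under 50% unique sequence, against 21 (0.215%) with RING1B. Of the 143 CpG-rich promoters with under 50%, 85.3% lacked RING1B, and of the 9407 in which every 50-base sequence occurred once, 9.08% did (8.51% to 9.68%). The part of unique sequence in the missing peaks was not tested. Leaving out the X and promoters under 90% left 935 members of 10349 CpG-rich promoters, 9.03% (8.50% to 9.60%). Their median CpG observed/expected was 0.736 against 0.794 with RING1B, as before.

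Repeated sequence gathered in runs of neighbouring members, counted along the CpG-rich promoters of a chromosome. There were 11 runs of 6 or more members, and 7 of them had a median unique share under 50%. The longest held 31 genes for 5S ribosomal RNA, the small RNA of the large ribosomal subunit, within 81.5 kb of chromosome 8, at a median of 0%. Runs of 8 lay on chromosome 14 (from Gm10409 to Gm10406) and on chromosome 17 (from Gm3417 to Ermard and Tcte3), at 32.4% and 0%. A run of 6 on chromosome 13 held the histone genes H2bc23, H2ac23, H4c17, H4c18 and H2ac24, and a run of 6 on chromosome 12 the signal recognition particle genes Srp54a, Srp54b and Srp54c with Fam177a and Fam177a2. Runs of unique sequence were found on chromosome 16, where Zfp174, Zfp597, Naa60, Gm41410, 1700037C18Rik, Cluap1 and Trap1 followed each other over 230.6 kb at a median of 100%, and on the X. There, G6pdx, Dkc1, Cmc4, Mtcp1, Brcc3, Tbl1x and Prkx formed a run of 7 at 95.7%, and Slc35a2, Pqbp1, Timm17b, Hdac6, Suv39h1 and Gm6787 a run of 6 at 100%.

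By type of gene, 1122 members were protein-coding (88.7%), 75 were long non-coding RNA genes, 32 ribosomal RNA genes, 24 transcribed pseudogenes and 6 microRNA genes. Promoters of non-coding genes or pseudogenes made up 11.3% of members (9.68% to 13.2%) and 8.38% of RING1B-bound CpG-rich promoters (7.84% to 8.94%), a difference of 2.93 percentage points. Over promoters with at least 90% unique sequence the difference was -2.26 percentage points. All 32 ribosomal RNA members had under 50% unique sequence, and on autosomes with at least 90% the share without RING1B was 6.68% of 704 long non-coding RNA promoters and 9.25% of 9515 protein-coding ones. The start of a microRNA gene in the annotation is that of its hairpin and not a mapped TSS.

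Genes of core cell machinery were described by 9 lists. In 6 of them the interval of the share without RING1B lay above the share over all CpG-rich promoters, and for splicing, DNA replication and translation initiation it included that share. Gene lists were drawn by name, with earlier results of these data known, and are given by counts with no test, beside the 11.5% of all CpG-rich promoters. Genes for proteasome subunits, which degrade ubiquitylated proteins, had the highest share, 17 of 38 promoters without RING1B (44.7%, interval 30.1% to 60.3%). Members among them with the highest CpG ratios were Psmd8 (0.842), Psmd6 (0.840), Psmd11 (0.835), Psme4 (0.825) and Psmb5 (0.785). Psmd6 lay 107635 bp and Psmd8 7556 bp from RING1B, and all 17 members of this list were autosomal with at least 90% unique sequence.

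Genes of mitochondria came next. Mitochondrial ribosomal protein genes lacked RING1B at 22 of 66 (33.3%, 23.2% to 45.3%), among them Mrps10, Mrpl15, Mrpl37, Mrps16 and Mrpl32 with ratios from 0.809 to 0.877. Oxidative phosphorylation genes lacked it at 19 of 69 (27.5%, 18.4% to 39.0%), with Cox6a1 (0.945) of the terminal oxidase, Uqcrq (0.850) of complex III and Ndufa10, Ndufs7 and Ndufb11 of complex I. Ndufb11 is X-linked. Uqcrq and Mrps16 had a RING1B peak within 5 kb, at 4415 and 4610 bp.

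Genes of protein synthesis showed intermediate shares. Aminoacyl-tRNA synthetase genes lacked RING1B at 8 of 31 (25.8%), including Wars, Aars2, Farsa and the head-to-head pair Hars and Hars2, whose starts lie 4 bases apart and whose windows gave the same 52 CpGs. Cytosolic ribosomal protein genes lacked it at 16 of 72 (22.2%, 14.2% to 33.1%), including Rps26, Rpl9, Rpl31 and Rpl7a. Rpl7a shares its promoter region with the Mediator gene Med22. Over autosomal promoters with at least 90% unique sequence the ribosomal share was 11 of 61 (18.03%), beside 9.03% of all such CpG-rich promoters. Ribosomal protein genes have many processed copies elsewhere in the genome, and the part of these copies in the shares was not tested. Of the 16 ribosomal members, 0 had under 50% unique sequence. Translation initiation factor genes lacked RING1B at 8 of 48 (16.7%, 8.70% to 29.6%), including Eif4enif1, Eif2b1, Eif3f, Eif3e and the X-linked Eif2s3x.

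Nuclear machinery ranged from above the background to near it. RNA polymerase and Mediator genes lacked RING1B at 12 of 49 (24.5%, 14.6% to 38.1%), with Med14, Med22, Med16, Med18 and Med28 at the highest ratios. DNA replication genes lacked it at 5 of 33 (15.2%, 6.65% to 30.9%), namely Orc6, Gins4, Rfc2, Orc5 and Mcm9, the last of which is in the list by its name and acts mainly in repair and meiosis. Splicing factor genes lacked it at 7 of 54 (12.96%, 6.42% to 24.4%), including Lsm12, Sf3b3, Sf3b6, Prpf31 and Snrpc, which is near the background. Small nucleolar and small nuclear RNA genes with their hosts were at 9 of 38 (23.7%), among them Rnu3b3, Rnu12, Rnu1b6 and the host genes Snhg6 and Gas5, and 4 of the 9 had under 50% unique sequence. Replication-dependent histone genes were at 6 of 48 (12.5%), of which 5 had under 50%. H3c6, at 68.2%, was the other.

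Zinc finger (Zfp) genes, most of which encode DNA-binding repressors, lacked RING1B at 42 of 202 (20.8%, 15.8% to 26.9%). Over autosomes with at least 90% unique sequence they lacked it at 31 of 187 (16.6%), beside 9.03% of all such CpG-rich promoters. Zfp236, Zfp787, Zfp91, Zfp560 and Zfp942 had the highest ratios, from 0.778 to 1.01. Motile cilium genes were at 7 of 26 (26.9%, 13.7% to 46.1%), including Cfap61, Cfap36, Rsph3a, Rsph3b and Spag5. Spag5 is in the list by its name, and encodes a protein of the mitotic spindle. SUZ12 was listed at 30.8% of the motile cilium promoters and 2.90% of those of oxidative phosphorylation, beside 39.6% of all CpG-rich promoters.

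Developmental genes were rare among the members. Of 136 CpG-rich promoters of developmental transcription factor genes, 0 lacked RING1B (0% to 2.75%). SUZ12 was listed at 94.1% of them, beside 39.6% of all CpG-rich promoters. Of 73 ion channel promoters, 1 lacked RING1B, that of Cacng2, which had the SUZ12 peaks described above, and 97.3% had SUZ12. Pluripotency genes were at 0 of 15 (0% to 20.4%) and clustered protocadherin genes at 0 of 5 (0% to 43.4%). Germline genes were at 1 of 36 (0.492% to 14.2%), Asz1, a gene of the piRNA pathway with 38 CpGs and a ratio of 0.606, close to the cutoff. Imprinted genes were at 2 of 29 (1.91% to 22.0%), Mcts2 and Nnat. Both are expressed from the paternal allele and lie 9193 and 5860 bp from RING1B. The intervals for pluripotency, protocadherin, germline and imprinted genes each include the 11.5% of all CpG-rich promoters.

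Of 38 promoters of Polycomb subunit genes, 1 lacked RING1B (0.466% to 13.5%), that of Mtf2, which encodes the PRC2 accessory protein PCL2. The Mtf2 promoter had 55 CpGs in 1 kb at a ratio of 0.812, and lay 63660 bp from the nearest RING1B peak and 296931 bp from the nearest SUZ12 peak. Solute carrier genes were at 13 of 176 (7.39%, 4.37% to 12.2%), with Slc35a4, Slc31a1, Slc6a8, Slc25a37 and Slc25a12 at the highest ratios. Genes of the Gpr family were at 2 of 22, Gpr137b and Gpr107, antisense and opposite-strand transcripts at 3 of 78, Smc2os, Ino80dos and the coding gene Wdr83os, and microRNA genes at 6 of 89, including Mir6546, Mir718, Mir484, Mir5132 and Mir6359. The olfactory, vomeronasal and defensin families had 1547 genes and 1 CpG-rich promoter, that of Vmn2r29, which was a member.

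When the 9 lists of core cell machinery were joined, a grouping made after the values were seen, 114 of 460 promoters lacked RING1B (24.8%, 21.1% to 28.9%) and 7.83% had SUZ12. The 7 lists of development, channels, germline, imprinting, pluripotency, protocadherins and Polycomb gave 5 of 328 (1.52%, 0.653% to 3.52%) and 80.8% with SUZ12. Over all CpG-rich promoters, 39.6% had SUZ12. The median number of CpGs was 66 in the core machinery lists and 75.5 in the others. Within promoters of 30 to 59 CpGs the joined lists were at 75 of 174 (43.1%) and 2 of 85 (2.35%), and all CpG-rich promoters at 23.5%. Within 60 to 89 they were at 34 of 232 (14.7%, 10.7% to 19.8%) and 3 of 143 (2.098%), beside 9.73%. At 90 or more they were at 5 of 54 (9.26%, 4.02% to 19.9%) and 0 of 100 (0%), beside 4.21%. The interval of the core machinery lists in that bin includes the 4.21%. The order of the joined lists was thus the same in each of these 3 bins, of which the last rests on few members.

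**Figure D5:**
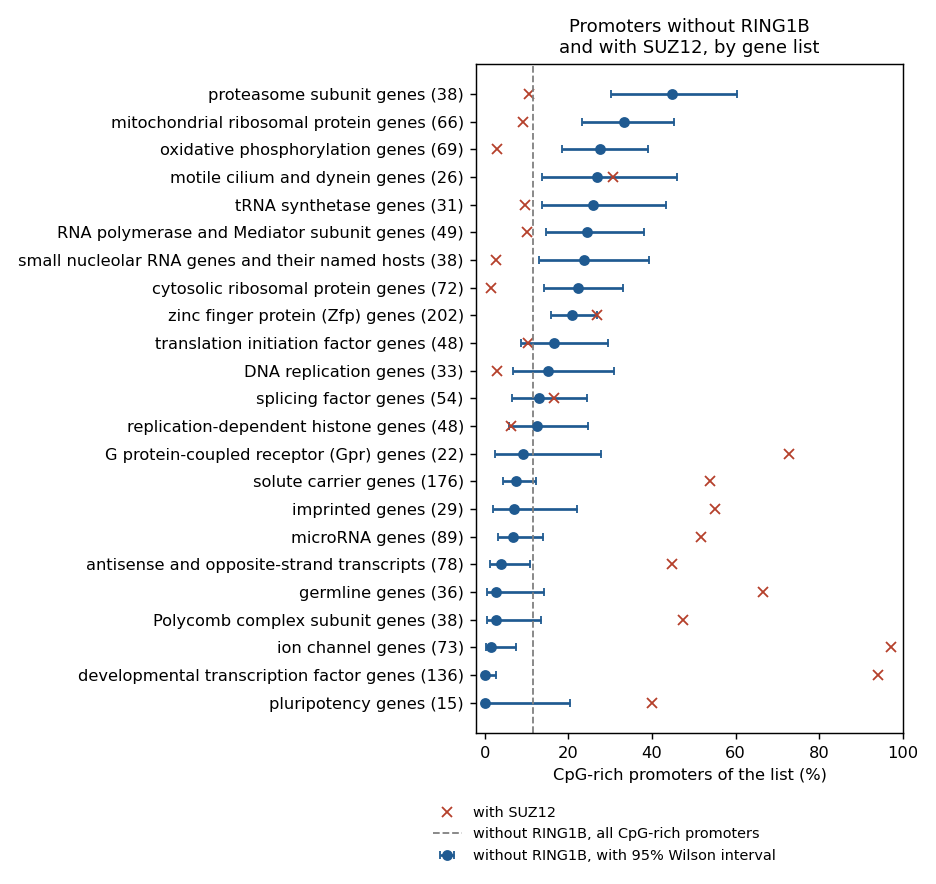
Percent of the CpG-rich promoters of each gene list (number in parentheses) that lacked RING1B (circles, with 95% Wilson intervals) or had a SUZ12 peak (crosses), for lists with at least 15 such promoters. The dashed line is the 11.5% without RING1B over all CpG-rich promoters, and the lists run from 44.7% for proteasome genes to 0% for developmental transcription factor and pluripotency genes.

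Features that the rule did not use were then compared. A gene on the other strand starting within 1 kb upstream was found at 318 members (25.1%, 22.8% to 27.6%) and at 19.3% of RING1B-bound CpG-rich promoters (18.6% to 20.1%). Of these 318, 301 faced a promoter that was itself a member, so such pairs count the same CpG-rich sequence under both genes. The 1265 members formed 1048 groups of overlapping windows. Genes of members had a median length of 19298 bp (interquartile range 8497 to 40366), against 23675 bp (8659 to 59543) with RING1B. Repeat-masked sequence took a median of 8.00% of the window (4.20% to 13.9%) against 6.50% (2.8% to 11%). The excess of G over C in the 500 bases after the TSS, as a share of both, had a median of 0.0787 (-0.0035 to 0.145) against 0.0543 (-0.0181 to 0.124). TpG observed/expected, which is raised where methylated CpGs have been lost by mutation, was 1.02 at members and 1.01 with RING1B, against 1.25 at CpG-poor promoters without RING1B.

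Short motifs of common promoter factors were then searched on both strands in the 300 bases before each TSS, as matches of letters only. The motif of ETS factors, CCGGAAGT, was found at 146 members (11.5%, 9.90% to 13.4%), at 6.10% of RING1B-bound CpG-rich promoters (5.64% to 6.59%) and at 3.59% of all promoters. That of YY1, AAGATGGC, was found at 4.11% of members (3.15% to 5.35%), 2.32% with RING1B (2.04% to 2.64%) and 1.78% of all. The cyclic AMP response element, TGACGTCA, was found at 4.74% (3.70% to 6.06%), 3.07% (2.74% to 3.43%) and 2.01%, and is present in the Ing3 stretch printed above. The CCAAT box was found at 45.3% of members (42.6% to 48.0%) and 38.0% with RING1B (37.1% to 39.0%), beside 39.4% of all promoters.

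Other motifs were less common at members. The E-box CACGTG was found at 6.48% (5.25% to 7.98%) against 11.1% with RING1B (10.5% to 11.7%) and 7.29% of all promoters. The Sp1 motif GGGCGG was found at 64.9% (62.2% to 67.5%) against 71.9% (71.0% to 72.8%) and 41.0%, and in all 7 printed stretches. Shares for the other 4 had overlapping intervals. They were 3.56% and 4.79% for the E2F motif GGCGGGAA, which can overlap that of Sp1, with 2.53% of all promoters. They were 4.19% and 5.33% for the NRF1 motif GCATGCGC, with 2.87% of all, and 2.13% and 2.06% for the ZBTB33 motif CTCGCGAG, with 0.966% of all, found in the Lrp6 stretch. The TATA box TATAAA was at 6.798% and 6.26%, with 14.3% of all, and in the Zfp267 stretch. Members were lower in GC content, and its part in these shares was not tested.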

How the data were processed

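The deposited files were 3 lists of peak positions for RING1B, SUZ12 and PCGF2 (18643, 7438 and 3680 peaks) on mm10, with no heights, replicates or depth. According to their methods, the authors used Bowtie 2 on a genome combining mm10 with hg19 for the spike-in. Only unique reads entered, duplicates were taken out by Sambamba, and MACS2 called broad peaks over Input. RING1B and SUZ12 peaks were called on merged replicates and kept where found in untreated PRC1CPM and PRC1CKO cells, the RING1B data of the latter coming from outside these samples. PCGF2 peaks were kept where all replicates had them. Blacklisted regions were dropped, as were RING1B peaks without a significant loss on tamoxifen in PRC1CKO cells, so the lists are not equally strict.

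Coordinates were set on GRCm38.p6 and are counted from base 1. A peak counted at a promoter if it shared at least 1 bp with the TSS plus or minus 2500 bp. Genes with a start on both sex chromosomes were taken at the first. Unique sequence was the percent of 50-base sequences in the 1 kb window that occur once in the assembly on either strand. The 95% Wilson intervals of shares reflect counting error alone, with promoters taken as independent. The 4 tests were two-sided Fisher's exact tests with Benjamini-Hochberg adjustment and a threshold of 0.05. The members, gene lists, motifs and tests were chosen with earlier results of these data known. Named promoters were all members with SUZ12, the extremes of CpG content and distance, those next to each cutoff, up to 5 members per gene list by CpG observed/expected, and the longest runs. Some of the promoters this rule selects are not reported here. The 13 alternatives changed the reach, window, cutoffs, TSS, gene type, chromosomes, unique sequence, overlapping windows and RING1B peaks kept. The code was tested on simulated data. Python 3.11.15, pandas 2.3.3, SciPy 1.17.1 and numba 0.67.0 were used.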

Additional observations from a re-analysis of the deposited data

How the results depend on the processing

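No paired analysis was possible because the peak lists hold no replicates. Of 97 values recomputed under 13 alternatives and 1 added after seeing the data, 79 kept their direction and call or stayed within their interval. The share of CpG-rich promoters without RING1B (11.5%) was 13.2% and 6.23% with CpG windows of 500 bp and 2 kb, 8.26% with a CpG cutoff of 0.75, 8.86% with a GC cutoff of 55%, 10.5% on autosomes, 9.89% with at least 90% unique sequence, 9.03% with both of these and 24.9% without the narrowest 25% of RING1B peaks. The SUZ12 difference from CpG-poor promoters (0.773 percentage points) was 0.473 at the most downstream TSS, 1.31 with the 55% cutoff and 2.26 with the narrowest RING1B peaks left out. Members' median CpG observed/expected differed by -0.0581 from that of RING1B-bound promoters, and by -0.0341 with the 2 kb window, -0.0246 with the 0.75 cutoff, -0.0505 with the 55% cutoff and -0.0479 without the narrowest peaks. The difference in non-coding promoters (2.93 percentage points) was 0.897 with the 2 kb window, 0.193 with the 0.75 cutoff, -0.00303 without the narrowest peaks, -2.26 with at least 90% unique sequence and -2.39 with this on autosomes alone. The cause of these changes was not tested. The SUZ12 and PCGF2 differences from RING1B-bound promoters passed the threshold under all 14 alternatives. This contrast was known before the members were chosen, so its stability is not independent evidence. The lists give no depth, so how far depth limits detection is unknown.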
